A study of Mus musculus with 12 samples.

Results

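The earliest stage of upper-layer projection neurons, E17.5, was compared with the earliest stage of deep-layer projection neurons, E13.5, in ATAC-seq peak lists from the neocortex of CD1 mice. Overlapping or touching peaks of the 12 lists of the series formed 498516 regions, each of which counted as open in a list that had a peak over at least 1 bp of it. The comparison covers 40650 of these regions: 25023 that were open in both upper-layer E17.5 lists and in neither deep-layer E13.5 list (E17.5-only regions), and 15627 with the opposite pattern (E13.5-only regions).

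The deep-layer cells expressed the Golli-GFP transgene. The upper-layer cells had received, by in utero electroporation at E15.5, a plasmid in which a Cdk5r promoter drives GFP, so they are the GFP-positive cells reached by electroporation on that day and not all upper-layer neurons. GFP-positive cells were sorted from dissected neocortex, 250000 to 500000 per sample, and each replicate came from 2 to 8 embryos. The deep-layer stages are E13.5, E16.5 and E18.5, the upper-layer stages E17.5, P1 and P5, each with 2 replicates. The 4 lists compared here differ in population, in reporter method and in embryonic age, which is 4 days apart, and these differences cannot be told apart. Nothing in the labels says whether replicates came from separate litters.

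ATAC-seq marks open chromatin through a transposase that cuts accessible DNA, and peaks are found mainly at promoters and at enhancers, the distal elements that set cell type specific expression. Neocortical projection neurons are born in sequence from progenitors of the ventricular wall. Deep-layer neurons come first and include those that project to the thalamus, brainstem and spinal cord, and upper-layer neurons follow and project mostly within the cortex and across the corpus callosum. Regions are given by mm9 positions, counted from 1, because the gene table at hand is of another build. Genes, promoters, motifs and marker genes were therefore not analysed here, the labelled cell types were not checked against markers, and no sequence is printed.

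The E17.5 lists held 164508 peaks in replicate 1 and 123229 in replicate 2, and the E13.5 lists held 129992 and 153892. Both E17.5 lists had wider peaks, with medians of 489 and 481 bp against 390 and 397 bp at E13.5. Peak names in both E17.5 lists carried the library name of replicate 1. Of the peaks of E17.5 replicate 2, 93.4% overlapped a peak of replicate 1, and in the reverse direction the share was 68.9%. The E13.5 replicates overlapped in 76.5% of the peaks of replicate 1 and 64.4% of those of replicate 2. The E17.5 lists may therefore not be independent, and the sizes of the sets and their shares in later lists were also computed with a single list per stage. With 2 lists against 2, neither an exact permutation of the labels nor Fisher's exact test on a region can give a two-sided p under 0.333, so counts and shares are given without tests.

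Regions shared by the stages outnumbered those of either set. Of 233566 regions open in at least 1 of the 4 lists, 69227 (29.6%) were open in all 4. E17.5-only regions made up 10.7% of the 233566 and E13.5-only regions 6.69%. Seen from each stage, the E17.5-only regions were 22.6% of the 110937 regions open in both E17.5 lists, and the E13.5-only regions were 16.7% of the 93677 open in both E13.5 lists. Another 16687 regions (7.14%) were open in both E17.5 lists and 1 E13.5 list, and 8823 (3.78%) in both E13.5 lists and 1 E17.5 list, while 10431 (4.47%) were open in 1 list of each stage. Regions open in a single list and no other of the 4 were more numerous than either set: 37953 (16.2%) came from 1 E17.5 list and 49795 (21.3%) from 1 E13.5 list.

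Which of the 2 sets was larger depended on the lists. E17.5-only regions outnumbered E13.5-only regions 1.60 to 1, and 1.37 to 1 (18095 against 13231) when every list was reduced to the same number of its widest peaks. With 1 list per stage, the counts were 76475 E17.5-only and 37413 E13.5-only for replicate 1 of each stage, but 34589 and 58837 for replicate 2 of each stage. E17.5 replicate 1 against E13.5 replicate 2 gave 66688 and 48993, and E17.5 replicate 2 against E13.5 replicate 1 gave 42051 and 44932. The longer list had more regions of its own in each of the 4 pairs. Without E17.5 replicate 2 alone the E17.5-only count was 58776, and without E13.5 replicate 1 or 2 alone the E13.5-only count was 46107 or 34942. The plot of counts by setting shows where the order turns.

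**Figure D1:**
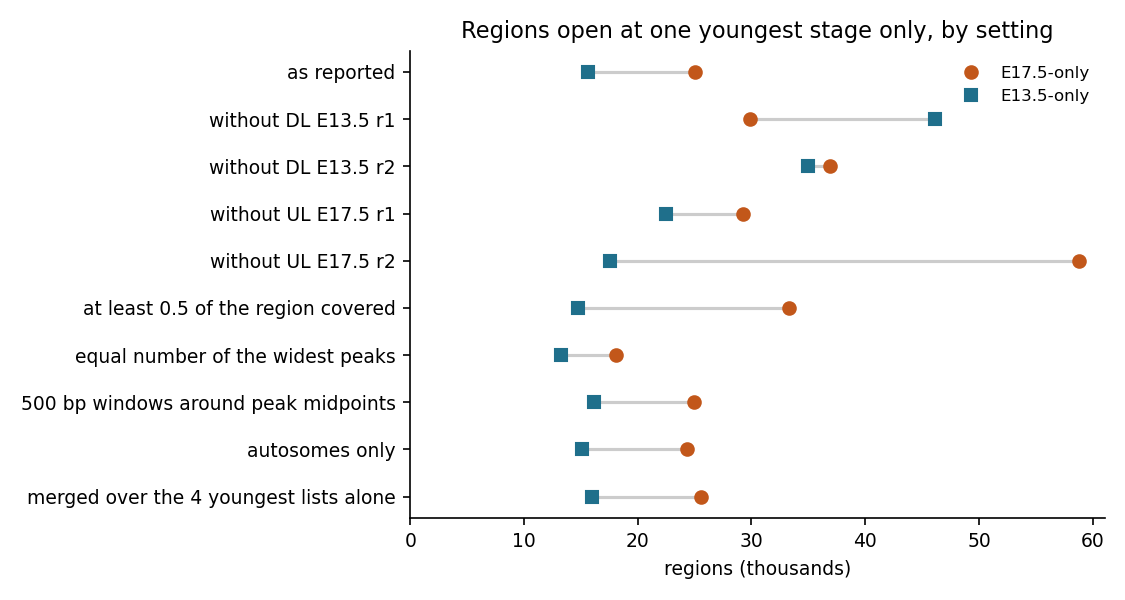
Numbers of E17.5-only regions (circles) and E13.5-only regions (squares), in units of 1000, as reported and under 9 alternatives, with a grey line joining the pair (DL deep-layer, UL upper-layer, r replicate). E17.5-only regions are the larger set in every row shown except without deep-layer E13.5 replicate 1, where the counts are 29843 and 46107. The pairs with 1 list per stage are not drawn, and in 2 of these 4 pairs E13.5-only regions are the larger set.

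Regions open at one stage only were narrower than shared ones. The median peak width, taken for each region as the median over the 2 lists of its stage, was 431 bp in E17.5-only regions and 350 bp in E13.5-only regions. Regions open in all 4 lists had medians of 702 bp in the E17.5 lists and 548 bp in the E13.5 lists. The share of a stage's regions that were absent from the other stage was lower in each wider class. Among regions with E17.5 peaks from 200 to under 300 bp, 48.2% of 7941 were E17.5-only, and among those of 800 bp and over, 6.96% of 33843. For E13.5 the shares were 42.1% of 11436 regions and 1.62% of 15454. The lists hold no peak height, so how strong these narrow peaks were was not analysed here.

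At the limit of the rule, E17.5-only regions lay a median of 3906 bp from the nearest E13.5 peak, and 2215 (8.85%) lay within 500 bp of one. For E13.5-only regions the median distance to an E17.5 peak was 4226 bp, and 1426 (9.13%) lay within 500 bp. Just outside the rule, in the 16687 regions open in both E17.5 lists and 1 E13.5 list, the E13.5 peak covered a median of 311 bp and the E17.5 peaks had a median width of 475.5 bp. In the 8823 regions with 1 E17.5 list the cover was 321 bp and the E13.5 width 383.5 bp.

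The 8 later lists had no part in calling a region open at a youngest stage, though their peaks helped to set the borders of the merged regions. Later means after the first stage of the same population, so deep-layer E16.5 counts as later although it precedes upper-layer E17.5. All 4 later deep-layer lists are prenatal and all 4 later upper-layer lists postnatal, so population, reporter method and age cannot be told apart here either. Every later deep-layer list was open in more of the E13.5-only than of the E17.5-only regions, and every later upper-layer list in more of the E17.5-only regions. At deep-layer E16.5, replicate 1 was open in 43.0% of E13.5-only and 20.9% of E17.5-only regions, and replicate 2 in 25.7% and 16.3%. At deep-layer E18.5, replicate 1 was open in 22.6% of E13.5-only and 13.8% of E17.5-only regions, and replicate 2 in 34.6% and 24.2%. This direction depended on both E13.5 lists. Without E13.5 replicate 2 the share of E17.5-only regions was the higher one in all 4 later deep-layer lists, by a ratio of 1.07 to 1.60, and without replicate 1 the ratio was 0.987 to 1.28.

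In the upper-layer lists the order was the opposite. At P1, replicate 1 was open in 10.7% of E17.5-only and 4.49% of E13.5-only regions, and replicate 3 in 13.3% and 5.79%. At P5, replicate 1 was open in 10.8% of E17.5-only and 7.21% of E13.5-only regions, and replicate 2 in 15.9% and 7.15%. The share of E17.5-only regions divided by that of E13.5-only regions ranged from 0.487 to 0.70 in the 4 later deep-layer lists and from 1.5 to 2.39 in the 4 later upper-layer lists. These groups did not overlap. By 95% Wilson intervals, a measure of counting error alone, the 2 shares were apart in each of the 8 lists, for example 10.4% to 11.2% against 6.81% to 7.62% in P5 replicate 1, the list with the smallest ratio among the upper-layer lists.

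**Figure D2:**
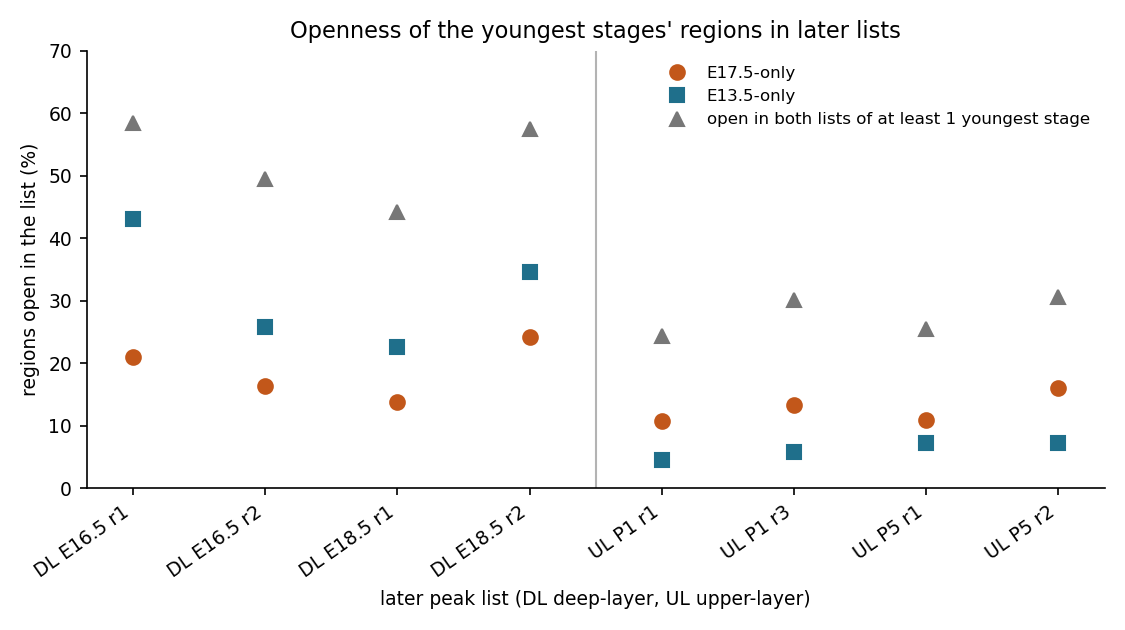
Percent of E17.5-only regions (circles), E13.5-only regions (squares) and all regions open in both lists of at least 1 youngest stage (triangles) that were open in each of the 8 later lists (DL deep-layer, UL upper-layer, r replicate; the vertical line parts the populations). Squares lie above circles in the 4 deep-layer lists and below them in the 4 upper-layer lists, while triangles are highest throughout, at 24.3% to 58.5%.

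The level in a list also depended on the list itself. Of all 135387 regions open in both lists of at least 1 youngest stage, later deep-layer lists were open in 52.4% ± 6.80 and later upper-layer lists in 27.6% ± 3.22 (SD, n = 4 each). E17.5-only regions were at 18.8% ± 4.66 and 12.7% ± 2.47, so their raw shares overlapped between the deep-layer and upper-layer lists. Divided by the share of all 135387 regions in the same list, they ranged from 0.312 to 0.422 in deep-layer lists and from 0.426 to 0.521 in upper-layer lists. E13.5-only regions were at 31.5% ± 9.23 in deep-layer and 6.16% ± 1.29 in upper-layer lists, and relative to all regions from 0.511 to 0.735 and from 0.184 to 0.284. The deep-layer mean of 31.5% was 18% when either E13.5 list was left out. Both sets were thus found less often in every later list than the regions of the youngest stages as a whole.

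In each of the 23 settings compared, the ratio of E17.5-only to E13.5-only shares was lower in every later deep-layer list than in every later upper-layer list. It was below 1 in all deep-layer and above 1 in all upper-layer lists in 18 of them. Settings that each leave out 1 of the 8 later lists only drop a ratio from the reported ranges. They could not change either result and add nothing to these counts. With regions merged over the 4 youngest lists alone, where no later peak sets a border, it was 0.488 to 0.711 in deep-layer and 1.56 to 2.59 in upper-layer lists. In the settings outside the 18 a single E13.5 list defined that stage, and the deep-layer mean ratio reached 1.18 without E13.5 replicate 1 and 1.44 without replicate 2. With 1 list per stage, the mean ratio was 0.782 to 1.12 in the deep-layer and 1.45 to 2.83 in the upper-layer lists.

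Wide E13.5-only regions were mostly open in later deep-layer lists and seldom in later upper-layer lists. Of the 250 E13.5-only regions with peaks of 800 bp and over, deep-layer E16.5 lists were open in 82.0% and 60.4% and E18.5 lists in 52.4% and 72.8%, while P1 lists were open in 5.20% and 8.00% and P5 lists in 11.6% and 10.4%. In the 4810 narrowest regions, from 200 to under 300 bp, the deep-layer mean was 20.1% ± 6.90 and the upper-layer mean 5.09% ± 0.738 (SD, n = 4 each). From the narrowest to the widest class the deep-layer mean went up to 66.9% ± 13.1 and the upper-layer mean to 8.80% ± 2.83. Of the regions open in all 4 youngest lists, at any width, later deep-layer lists were open in 65.3% to 81.1%. Later upper-layer lists were open in 37.0% to 46.0% of them. A high share in deep-layer lists was thus not particular to wide E13.5-only regions. Shares of shared regions by width class were not analysed here.

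The raw shares of wide E17.5-only regions overlapped between deep-layer and upper-layer lists, whose shares of all regions differ as given above (52.4% and 27.6%). In the 2354 regions of 800 bp and over, later deep-layer lists were open in 34.0% ± 7.70 and later upper-layer lists in 24.9% ± 4.30 (SD, n = 4 each), against 12.1% ± 3.49 and 8.66% ± 1.75 in the 3826 narrowest. Mean shares in both were higher in each wider class, and their ranges overlapped in every class. The ratio of E17.5-only to E13.5-only shares was 0.384 to 0.704 in deep-layer lists and 1.21 to 4.32 in upper-layer lists over the 4 width classes, with no overlap within a class, and the upper-layer mean was highest in the widest class, at 3.09.

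**Figure D3:**
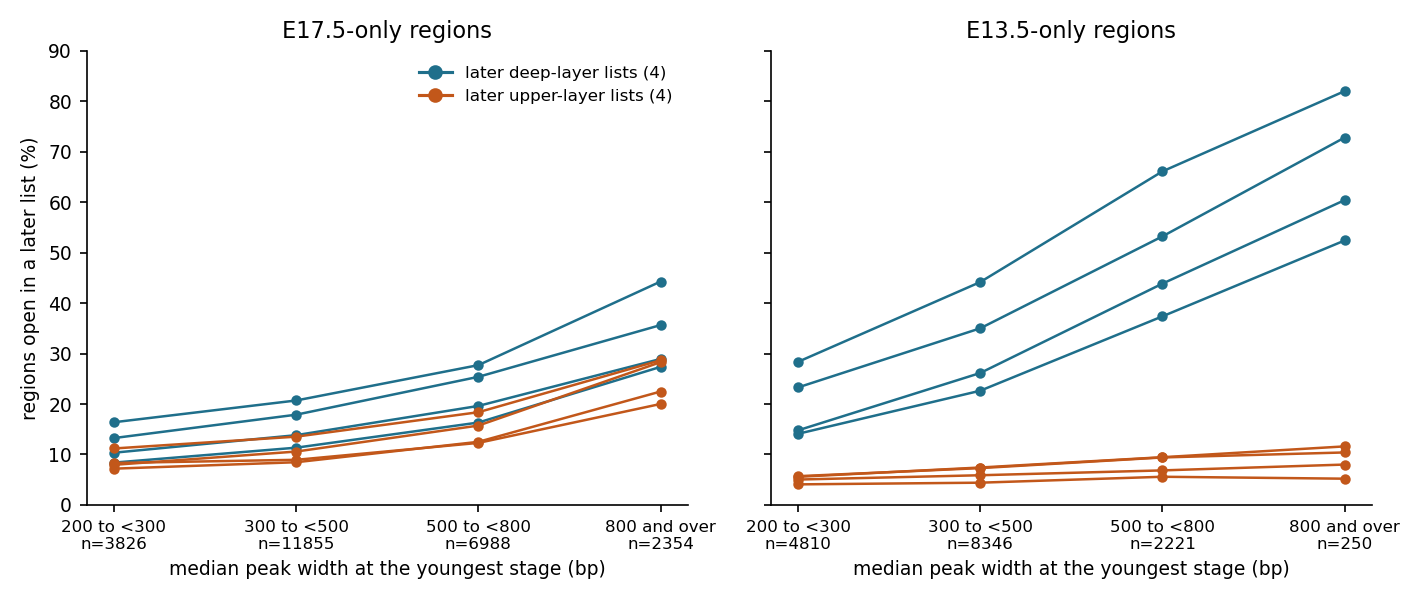
Percent of E17.5-only regions (left) and E13.5-only regions (right) open in each later list, by the median peak width of the region at its youngest stage in bp, with the number of regions under each class. Each line is 1 list, blue for the 4 deep-layer and orange for the 4 upper-layer lists. On the right the blue lines reach 52.4% to 82.0% in the widest class and the orange lines stay at or under 11.6%.

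Many regions of both sets were open in none of the 8 later lists, which for E17.5-only regions include the earlier age of deep-layer E16.5. Of the E17.5-only regions, 13132 (52.5%) were open in no later list, against 25.1% of all regions open in both lists of at least 1 youngest stage. The corresponding figure was 6786 (43.4%) for E13.5-only regions. No later deep-layer list was open in 16218 E17.5-only (64.8%) and 7550 E13.5-only regions (48.3%), where the background was 30.5%. No later upper-layer list was open in 18295 (73.1%) and 13183 (84.4%), where it was 56.4%. Open in all 4 later deep-layer lists were 1577 E17.5-only regions (6.30%) and 2446 E13.5-only regions (15.7%), where the background was 36.1%. Only 173 E17.5-only and 48 E13.5-only regions (0.691% and 0.307%) were open in all 8 later lists, against 13.2%.

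Regions that followed one population through all its stages came to 1732 among the E13.5-only regions, open in every later list of deep-layer neurons but absent from the later upper-layer lists (11.1%, background 9.90%), and 117 among the E17.5-only regions, with the opposite pattern (0.468%, background 0.199%). Among regions open in all 4 youngest lists, 12.9% had the deep-layer pattern and 0.0794% the upper-layer pattern. The deep-layer pattern was thus less common in E13.5-only than in shared regions. The background includes the sets themselves, and 117 of the 270 regions behind its 0.199% are E17.5-only. The opposite combinations also occurred in both sets. A further 739 E17.5-only regions were open in all later deep-layer lists and no later upper-layer list, which at 2.95% is below the background of 9.90%, whereas the 117 are above theirs. Among E13.5-only regions 17 were open in all later upper-layer lists and no later deep-layer list, at 0.109% against 0.199%.

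By stage, 2780 E17.5-only regions (11.1%) were open in both deep-layer E16.5 lists and 2892 (11.6%) in both E18.5 lists, at backgrounds of 44.7% and 42.3%. These regions were not listed at E13.5 and were listed in deep-layer neurons at later ages. In both P1 lists 1467 (5.86%, background 19.6%) were open and in both P5 lists 1732 (6.92%, background 20.6%). For E13.5-only regions the counts were 3508 (22.4%) and 3180 (20.3%) at deep-layer E16.5 and E18.5, and 258 (1.65%) and 487 (3.12%) at P1 and P5.

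The regions with the widest peaks show how differently members of one set behaved. The widest E17.5-only region lay on chromosome 2 from 153353522 to 153356594. Peaks covered 2755 and 2606 bp of it at E17.5 and none at E13.5 or deep-layer E16.5, then 1685 and 2495 bp at deep-layer E18.5, 1618 and 2438 bp at P1 and 1280 and 1604 bp at P5. It was thus open in all lists from E17.5 on and in no list of the 2 earlier deep-layer stages. The region on chromosome 5 from 145015591 to 145017542 was nearly the same, with 1738 and 1829 bp at E17.5, 225 bp and none at E16.5, 989 and 1241 bp at E18.5, 780 and 887 bp at P1 and 660 and 1384 bp at P5.

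Other wide E17.5-only regions were seen at few other stages. The region on chromosome 12 from 95633191 to 95635037 had 1835 and 1820 bp covered at E17.5 and, of the later lists, was open only in deep-layer E18.5 replicate 2, with 626 bp. A region on chromosome 17 from 59591924 to 59593757, with 1834 and 1791 bp at E17.5, was also open in deep-layer E16.5 replicate 1 (200 bp) and E18.5 replicate 2 (324 bp). A region on chromosome 18 from 57421133 to 57423211, with 1902 and 1913 bp at E17.5, was open in all 4 later deep-layer lists at 230 to 622 bp and had no postnatal peak. In contrast, the region on chromosome 5 from 126137613 to 126140047, with 1936 and 1867 bp at E17.5, was open in no deep-layer list and, at 322 to 377 bp, in 3 of the 4 later upper-layer lists.

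Among the 117 regions that stayed with upper-layer lists, the widest lay on chromosome 17 from 6545627 to 6547711, on chromosome 6 from 124758637 to 124759907 and on chromosome 4 from 130359833 to 130361447. The first had 1608 and 1178 bp covered at E17.5, 635 and 533 bp at P1 and 203 and 200 bp at P5. The second had 1232 and 1227 bp, then 574 and 268 bp, then 742 and 366 bp. The third had 1318 and 1250 bp, then 402 and 650 bp, then 348 and 487 bp. In all 3 the cover was lower in each postnatal list than in either E17.5 list. Median peak widths were also lower in the postnatal lists as a whole, at 302 to 326 bp. The 3 regions were picked for wide peaks at E17.5, which by itself favours higher cover there.

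Of the 6 widest E13.5-only regions, 3 were open in all later deep-layer lists and in no list from upper-layer neurons. One of them, on chromosome 8 from 99808196 to 99809744, had 1479 and 1512 bp covered at E13.5, 837 and 949 bp at E16.5, 330 and 710 bp at E18.5 and none in any upper-layer list. Another, on chromosome 10 from 24708662 to 24710937, had more cover later, with 1548 and 1183 bp at E13.5, 1720 and 1689 bp at E16.5 and 2136 and 1941 bp at E18.5, again with none in upper-layer lists. The last, on chromosome 1 from 125105661 to 125107093, had 1254 and 1372 bp, then 1081 and 363 bp, then 630 and 744 bp. These 3 were also the widest of the 1732 regions that followed the deep-layer lists.

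The other 3 were open in few later lists. The region on chromosome 16 from 74847362 to 74848877, with 1208 and 1471 bp covered at E13.5, was open in no other list of the series. A region on chromosome 10 from 97720557 to 97722456, with 1900 and 1274 bp, was open later in E16.5 replicate 1 (306 bp) and E18.5 replicate 2 (256 bp). The region on chromosome 1 from 123122698 to 123124231, with 1372 and 1309 bp, had 432 bp in E16.5 replicate 1, 431 bp in E18.5 replicate 2 and 435 bp in P1 replicate 1. It was the only one of the 6 with a peak in a later upper-layer list.

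**Figure D4:**
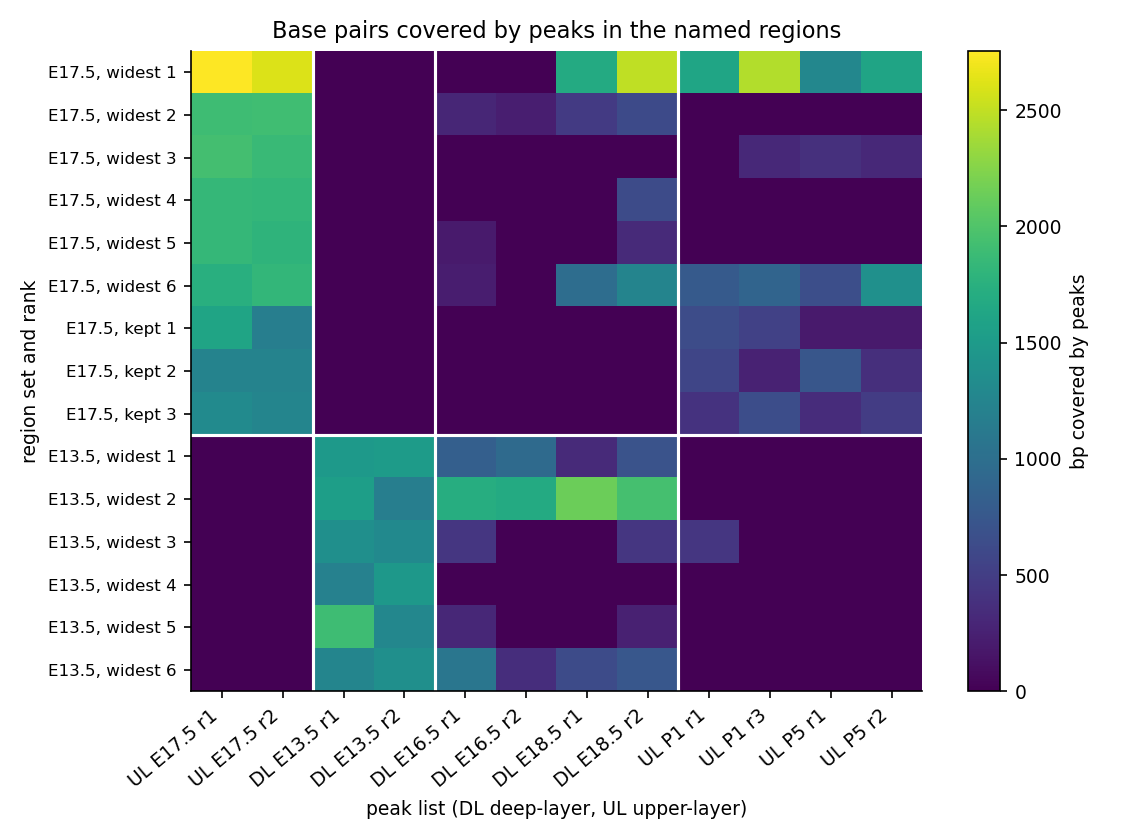
Base pairs covered by peaks (colour) in each list (columns; DL deep-layer, UL upper-layer, r replicate) for the 6 widest regions of each set and the 3 widest E17.5-only regions open at every later upper-layer stage alone (rows marked kept). White lines part the E17.5, E13.5, later deep-layer and later upper-layer lists, and the 2 sets. Of the 6 widest E13.5-only regions 1 has a peak in a later upper-layer list, while 5 of the 6 widest E17.5-only regions have one in a later deep-layer list. Of all regions open in both lists of at least 1 youngest stage, 56.4% are open in no later upper-layer list and 30.5% in no later deep-layer list.

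Along the chromosomes the 2 sets were spread differently. With each chromosome cut into 5 equal segments, E17.5-only regions were sparsest in the first segment (16.1%) and most frequent in the last (24.0%). E13.5-only regions had 22.4% in the first segment and 16.4% in the last. Regions open in all 4 lists were spread evenly, with 19.3% to 20.7% per segment. The share in the last segment was higher for E17.5-only than for E13.5-only regions on 18 of 20 chromosomes, the exceptions being chromosomes 14 and 17. On chromosome 8 it was 28.1% against 9.12% and on chromosome 5 21.9% against 6.83%.

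The lists as a whole differed in the same direction, by less. E17.5 lists had 20.7% and 21.2% of their open regions in the last segment and E13.5 lists 17.7% and 19.3%. Later deep-layer lists had 17.5% to 19.3%, and later upper-layer lists 20.8% to 24.7%. E17.5 replicate 1 lay between these groups and replicate 2 within the range of the later upper-layer lists. The part of this list-wide difference in the placement of the 2 sets was not tested.

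**Figure D5:**
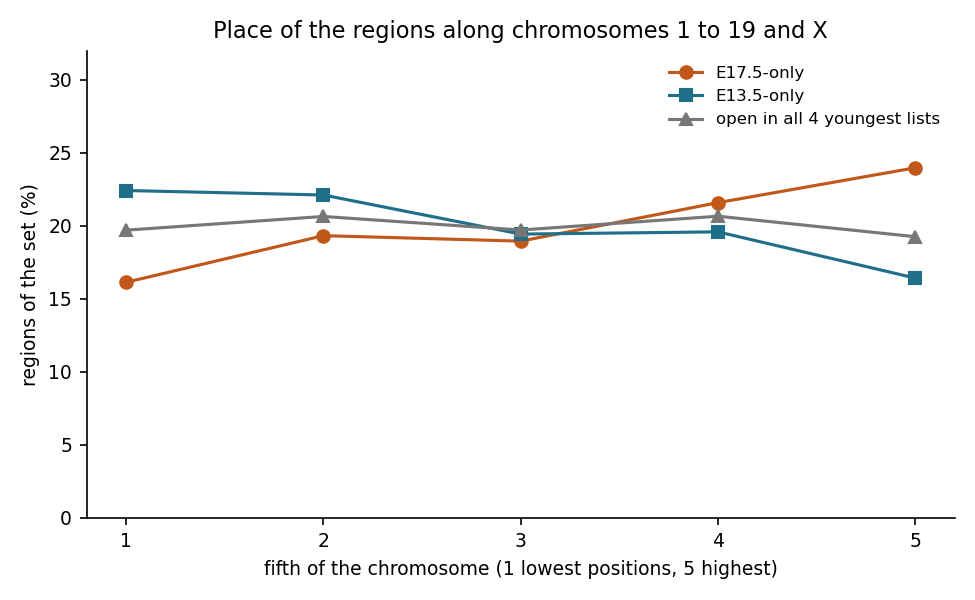
Percent of E17.5-only regions (circles), E13.5-only regions (squares) and regions open in all 4 youngest lists (triangles) in each of 5 equal segments of chromosomes 1 to 19 and X, from the lowest to the highest positions. E17.5-only regions are at 16.1% in the first segment and 24.0% in the last, E13.5-only regions at 22.4% and 16.4%, and shared regions stay near 20% throughout.

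Chromosomes also differed as wholes. For every 100 regions open in all 4 lists, chromosome 5 had 44.3 E17.5-only regions, chromosome 18 had 43.6 and chromosome 11 had 41.9, while chromosome 19 had 29.0. E13.5-only regions were fewest on chromosome 7, at 16.01 per 100, and on chromosome 11, at 17.7. The ratio of the sets was 2.37 on chromosome 11 and 1.26 on chromosome 3, the extremes. Of all their peaks, E17.5 lists had 4.19% and 4.49% on chromosome 11 and E13.5 lists 3.59% and 4.12%, later deep-layer lists 3.41% to 4.06% and later upper-layer lists 4.86% to 5.96%.

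Counts of the sets per 1 Mb were weakly related. Over 2581 windows the Pearson correlation of E17.5-only with E13.5-only counts was 0.125, while each correlated with the count of regions open in all 4 lists, at 0.427 and 0.385. These are descriptions across windows, which share lists and regional peak density. Windows with at least 20 E17.5-only regions numbered 109, and those with at least 20 E13.5-only regions 7. This cut does not allow for the sizes of the sets, whose medians per window were 9 and 6. The 258 windows richest in each set held 20.7% of E17.5-only and 22.8% of E13.5-only regions. The same windows, picked by these counts, held 12.7% and 12.3% of the regions open in all 4 lists. A further 13064 regions were open in 2 or more later deep-layer lists and absent from E13.5 and all upper-layer lists, and their counts had a correlation of 0.513 with E13.5-only and 0.240 with E17.5-only counts. For 37600 regions open in 2 or more later upper-layer lists and absent from E17.5 and all deep-layer lists, the values were -0.198 and -0.0362.

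The largest excess of E17.5-only regions was on chromosome 8 from 126000001 to 127000000, with 43 E17.5-only, 5 E13.5-only and 19 regions open in all 4 lists. In this window the E17.5 lists were open in 96 and 84 regions and the E13.5 lists in 27 and 53. Later deep-layer lists had 28 and 39 there at E16.5 and 45 and 78 at E18.5, and later upper-layer lists 128 and 82 at P1 and 125 and 121 at P5. The next window lay on chromosome 18 from 69000001 to 70000000, with 35 E17.5-only and 2 E13.5-only regions. There the E17.5 lists were open in 90 and 80 regions, the E13.5 lists in 24 and 52, later deep-layer lists in 46 to 76 and later upper-layer lists in 42 to 64.

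The largest excess of E13.5-only regions was on chromosome 8 from 31000001 to 32000000, with 21 E13.5-only and 2 E17.5-only regions. The E13.5 lists were open in 56 and 64 regions of it and the E17.5 lists in 39 and 24, later deep-layer lists in 26 to 52, and later upper-layer lists in 4 to 10. On chromosome 2 from 80000001 to 81000000, 18 E13.5-only and 3 E17.5-only regions were found, with 80 and 75 open regions at E13.5, 59 and 38 at E17.5, 41 to 68 in later deep-layer and 23 to 46 in later upper-layer lists.

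Neighbouring members were of one set more often than the sizes of the sets give. The nearest other E17.5-only region lay at a median of 26.4 kb, and the nearest E13.5-only region at 59.2 kb. For E13.5-only regions the nearest of their own set lay at 43.6 kb and the nearest E17.5-only region, from the more numerous set, at 36.6 kb. Of the 2 sets, the nearest region was of the same set for 66.9% of E17.5-only regions, which made up 61.6% of the 40650, and for 46.5% of E13.5-only regions, which made up 38.4%. Both sets had similar distances to the regions open in all 4 lists, with medians of 10.9 and 11.4 kb.

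Stages also differed in peak width within the 69227 regions open in all 4 lists. The median cover was 768 and 661 bp in the E17.5 lists and 542 and 605 bp in the E13.5 lists. As listed, both E17.5 lists covered more than both E13.5 lists in 33377 regions (48.2%), and both E13.5 lists covered more in 8464 (12.2%). When the cover was divided by each list's own median the order turned. Then 15140 (21.9%) had more cover at E17.5 and 24050 (34.7%) more at E13.5. In the 4 later upper-layer lists the regions with more cover at E17.5 were open more often on either scale. On the divided scale the shares were 39.7% to 49.2% against 33.5% to 42.9%. In the 4 later deep-layer lists the regions with more cover at E13.5 were open more often on the divided scale only. The shares there were 67.8% to 85.2% against 60.8% to 76.2%. As listed, the regions with more cover at E13.5 were open less often, at 58.0% to 81.3% against 68.6% to 81.7%.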

How the data were processed

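The authors deposited 1 ATAC-seq peak list for each of the 12 samples, giving position and name without any score or p-value, so the values analysed are positions and widths. The submitters' processing notes list MACS2 2.1.0, Picard 1.14.0, Bowtie2 and cutadapt, with the mm9 build. What each did, peak thresholds, any transposase shift and read totals were not given in the sources. Read depth is therefore unknown, and only the number of peaks per list can be given.

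Peaks did not overlap within a list. They were merged over all lists, and states, covered base pairs and widths were read per region (Python 3.11.15, numpy 2.4.6, pandas 2.3.3, scipy 1.17.1, matplotlib 3.10.9). The calls were tested on simulated lists, in which separate regions lay too far apart to touch. Calls at close neighbours were therefore not tested. Background shares are over regions open in at least 1 youngest list, or in both lists of a youngest stage. Wilson intervals are at 95%.

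Named were, per set, the 6 regions with the widest peaks, the 3 widest that followed their own population alone, and the 2 windows of 1 Mb with the largest excess. Members, lists and settings were chosen with earlier results of these data known. Gene, promoter and motif results had been planned and were not run, since no mm9 annotation or sequence was used. Added after seeing the data were the ratio of shares, the chromosome segments, cut between the lowest and highest region of each chromosome, the neighbour distances, the cover of shared regions, the correlations across windows, and the alternatives with 1 list per stage, with later shares over regions of the youngest lists alone, or with the E17.5 lists joined.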

Additional observations from a re-analysis of the deposited data

How the results depend on the processing

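Alternatives were each list left out, 1 list per stage, 0.5 of the region covered, an equal number of the widest peaks, 500 bp windows around midpoints, autosomes only, merging over the 4 youngest lists, and the E17.5 lists joined (open where either is). No paired analysis was possible because no result comes from a fitted test, and the labels tie no E17.5 sample to an E13.5 sample of the same number. With lists left out, E17.5-only regions ranged from 29223 to 76475, E13.5-only regions from 17552 to 58837 and shared regions from 71152 to 93824. A single list then defines a stage. The ratio of the sets ranged from 0.588 to 3.35 and was below 1 without E13.5 replicate 1 (0.647), for replicate 2 of each stage (0.588) and for E17.5 replicate 2 against E13.5 replicate 1 (0.936). It was 2.26 with 0.5 of the region covered, 1.37 with the widest peaks, 1.54 with 500 bp windows and 4.03 with the E17.5 lists joined, which gave 62976 E17.5-only regions. Shared regions were 38261 with 0.5 covered.

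The mean share of E17.5-only regions in later deep-layer lists was 23.7% with the widest peaks and 12.9% with the E17.5 lists joined, and 13.1% to 25.2% with lists left out. In later upper-layer lists it was 15.9%, 8.47% and 8.43% to 16.9%, and 9.79% with 0.5 covered. For E13.5-only regions the ranges were 18% to 34.6% and 4.92% to 7.19%, and 2.21% with 0.5 covered in upper-layer lists. The mean ratio of the shares in deep-layer lists ranged from 0.409 to 1.44 and was above 1 without E13.5 replicate 1 (1.18) or 2 (1.44) and for E17.5 replicate 2 against E13.5 replicate 1 (1.12). It was 0.752 with 0.5 covered and 0.414 with the E17.5 lists joined. In upper-layer lists it ranged from 1.28 to 3.48, and was 4.69 and 1.40 in these settings. The cause was not tested. The share in the last segment of chromosomes was 21.3% to 25.2% for E17.5-only and 15.0% to 17.7% for E13.5-only regions with lists left out. Peak number and width limit what can be called open.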
